A study of Homo sapiens with 8 samples.

Results

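The 8 RNA libraries of this series can be divided into 2 sets of 4 that no label names, and the genes that varied between these sets are described here. The split was found from the data. Set 1 holds both WT vehicle libraries together with WT SI-2 2 and BR vehicle 1. Set 2 holds WT SI-2 1, BR vehicle 2, BR SI-2 1 and BR SI-2 2. The libraries were chosen by their measured expression, so every value that compares the sets is a description and has no p-value. Genes were ranked by a fit with the cell line and the set as terms, and 500 of the 13896 genes tested (3.6%) were called, with an adjusted value under 0.05 that serves only as a rule for picking them.

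All libraries come from LP-1, an established human myeloma cell line. WT cells are the wild-type line, and BR cells are its bortezomib-resistant form, which had been cultured with the proteasome inhibitor bortezomib for 2 months. Each line was kept for 24 h with DMSO as vehicle or with SI-2 at 25 nM, a compound that inhibits the coactivator SRC-3. The 4 conditions have 2 libraries each. BR is 1 selected line, and the labels do not say whether the libraries of a condition came from separate cultures. The study calls the experiments behind its heat map of BR cells biologically independent. Total estimated counts per library ran from 17997771 to 18570027, so depth was nearly even. Both WT vehicle libraries lie in set 1 and both BR SI-2 libraries in set 2, while WT SI-2 and BR vehicle each have 1 library in either set. Each set thus shares 3 of its 4 libraries with a line and 3 of 4 with a treatment, and the set cannot be fully told apart from these labels.

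Myeloma cells are malignant plasma cells and secrete large amounts of immunoglobulin. They rely on chaperones of the endoplasmic reticulum (ER), on the unfolded protein response that adjusts these chaperones, and on the proteasome, which degrades misfolded protein. When amino acids run short or unfolded protein builds up, translation initiation is slowed and the transcription factor ATF4 is made. ATF4 induces genes of amino acid transport, serine and glycine synthesis and tRNA charging. NF-kB, a transcription factor family active in many myelomas, induces its own inhibitors as well as survival genes.

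One library of set 2 stood apart from the other 7. In BR SI-2 2, 51 genes had a count of at least 50 while having at most 5 in every other library, and no other library had such a gene. COL1A1, a collagen chain made by fibroblasts, had 1032 counts there and 2 to 6 elsewhere, just outside that rule. COL3A1 had 998 against 1 to 5. All 12 fibroblast and stromal markers found were highest in that library, as were 8 of 10 epithelial markers, 6 of 11 T and NK cell, 5 of 10 myeloid, 3 of 7 endothelial and none of 10 B cell markers. GNLY, a granule protein of NK cells, had 40 counts there and 1 to 5 elsewhere. The summed fibroblast markers were at 172.3 CPM (counts scaled by TMM to a common library size) in BR SI-2 2 and at 13.1 to 27.0 CPM in the other libraries, where TAGLN or ACTA2 had the most counts. In bulk RNA, more cells of a type and more RNA per cell cannot be told apart. In those 7 libraries the fibroblast genes DCN and LUM had at most 1 count. Most of these genes were too low elsewhere to be tested, and the main counts are therefore also given without BR SI-2 2. Plasma cell identity was present throughout, with IRF4, a defining transcription factor, at 728.6 to 1315 CPM and JCHAIN, the joining chain of polymeric immunoglobulin, at 3478 to 5454 CPM.

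The first principal component of all tested genes held 30% of the variance and ordered the libraries by set. Set 1 ran from -31.2 to -1.6 and set 2 from 7.1 to 26.8 on this axis. The second component held 23.9%. On it the libraries numbered 1 lay between 6.3 and 23.9 and those numbered 2 between -25.3 and -14.2. The closest pair was WT vehicle 2 and WT SI-2 2, which differed by a root mean square of 0.303 on the log2 scale, followed by BR vehicle 2 and BR SI-2 2 at 0.359. The 2 libraries of the same condition differed by 0.463 in WT vehicle, 0.479 in WT SI-2, 0.479 in BR vehicle and 0.513 in BR SI-2. The sets were not clean clusters, since WT SI-2 1 of set 2 was nearest to WT vehicle 1 of set 1 (0.409), closer than to any library of its own set (0.415 to 0.485). For none of the 8 libraries was the nearest neighbour the other library of its own condition. In all 8 it was a library that carried the same number. WT vehicle 1 and BR vehicle 1, for example, differed by 0.391, and BR SI-2 1 and WT SI-2 1 by 0.43.

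**Figure D1:**
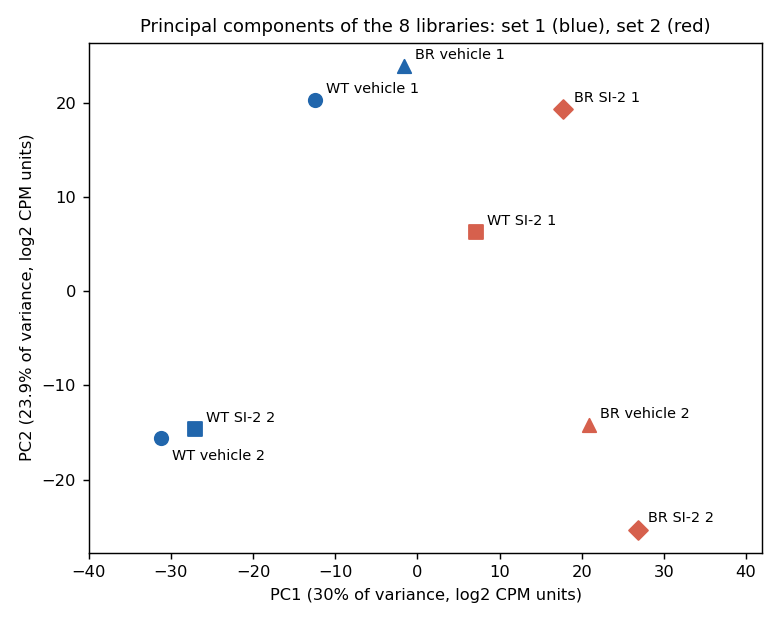
Each point is a library, placed by its first (x axis, 30% of variance) and second (y axis, 23.9%) principal component of log2 CPM, with a marker shape for each condition and colour for each set. Set 1 (blue) lies at -31.2 to -1.6 on the first component and set 2 (red) at 7.1 to 26.8, and the libraries numbered 1 lie above those numbered 2 on the second.

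Of the 500 genes called, 236 were higher in set 2 (1.7% of genes tested) and 264 were lower (1.9%). The differences were moderate, with a median log2 difference of 0.55 among genes called higher and -0.59 among those called lower, and 24 genes (12 in each direction) differed by at least 2-fold. In 459 of the 500, all 4 libraries of one set lay beyond all 4 of the other. Over all genes tested, 9.2% lay wholly above and 8.77% wholly below in set 2. The values nearest the threshold were those of PITHD1 and GALNT2 inside (0.0499 and 0.0497) and of IVNS1ABP and NADK2 outside (0.0502 and 0.0503). The number called depended on most single libraries. Without WT SI-2 1, BR vehicle 1 or BR vehicle 2, 0 genes were called, and without WT vehicle 2, WT SI-2 2 or BR SI-2 2 the numbers were 53, 48 and 134. It was 422 without WT vehicle 1 and rose to 1184 without BR SI-2 1. With SI-2 as a further term 0 genes were called, although 1988 had an unadjusted value under 0.05.

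The markers of the split were VDR, RGS1, GNAO1 and ST6GALNAC4. VDR encodes the vitamin D receptor, a ligand-activated transcription factor. Its level was 75.1, 57.9, 79.7 and 88.2 CPM in set 1, given here and below in the order WT vehicle 1, WT vehicle 2, then WT SI-2 2, then BR vehicle 1. In WT SI-2 1, BR vehicle 2, BR SI-2 1 and BR SI-2 2, the order used below for set 2, it was 194, 234.5, 184.9 and 250.7 CPM. The sets were far apart and even within themselves, with a fitted log2 difference of 1.40 (SE 0.15) over the 8 libraries. Within the parted conditions the log2 difference was 1.28 between the 2 WT SI-2 libraries and 1.41 between the 2 BR vehicle libraries.

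RGS1, which speeds up GTP hydrolysis by G protein alpha subunits, was at 13.2, 13.2, 17.0 and 10.45 CPM in set 1 and at 42.5, 20.1, 49.4 and 20.4 CPM in set 2. No library of set 1 reached the lowest of set 2, and within set 2 the libraries numbered 1 were above those numbered 2 (log2 difference 1.54, SE 0.32). ST6GALNAC4, a Golgi sialyltransferase, was at 22.5, 19.6, 21.0 and 9.89 CPM in set 1 and at 10.4, 3.87, 5.37 and 3.69 CPM in set 2. It was called lower with line as a term (log2 difference -1.10, SE 0.15), but the sets overlapped, since BR vehicle 1 lay below WT SI-2 1. GNAO1, the alpha subunit of the G protein Go, did not follow the split. It was at 64.0 CPM in WT vehicle 2 and 54.8 CPM in WT SI-2 2 and at 5.57 to 10.9 CPM in the other 6 libraries, and it was not called (log2 difference -1.69, SE 0.77). Without BR SI-2 2, VDR, RGS1 and ST6GALNAC4 were still called, at 1.36, 1.63 and -1.05.

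**Figure D2:**
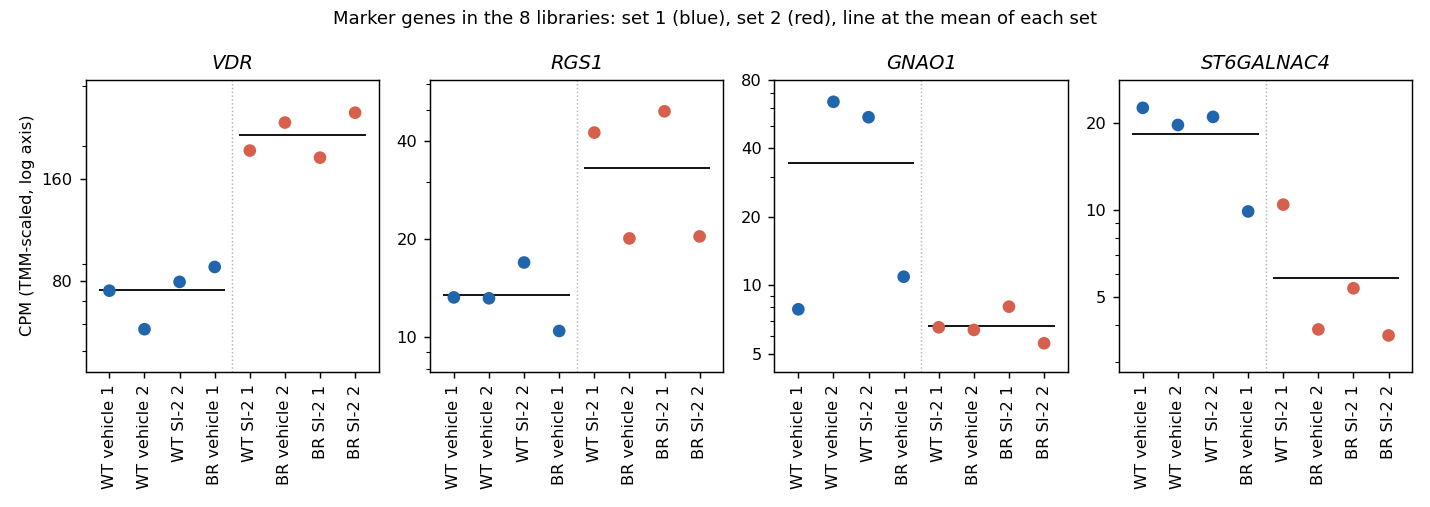
CPM (TMM-scaled, log axis) of the 4 marker genes in each library, with set 1 in blue on the left, set 2 in red on the right and a line at the mean of each set. VDR and RGS1 leave the sets apart, ST6GALNAC4 overlaps at 9.89 and 10.4 CPM, and GNAO1 is high in only 2 libraries of set 1.

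Among called genes with a mean count of at least 50 and no overlap of the sets, the 12 highest in set 2 began with JUN, a component of the AP-1 transcription factor. JUN was at 131.1, 146.5, 186.7 and 64.4 CPM in set 1 and at 357.4, 212.1, 512.7 and 206.0 CPM in set 2, with a log2 difference of 1.73 (SE 0.40). The sets did not overlap, but BR vehicle 2 and BR SI-2 2 were near WT SI-2 2. DUSP8, a phosphatase of MAP kinases, ranked next at 1.58 (SE 0.30), from 2.66 to 7.12 CPM in set 1 and 7.59 to 14.1 CPM in set 2. PSPC1, a protein of nuclear paraspeckles, differed by 1.46 (SE 0.19), and RAB30, a small GTPase of the Golgi, by 1.30 (SE 0.23). MYH15 (a myosin heavy chain), ZNF253 (a zinc finger protein), ARHGEF3 (a guanine nucleotide exchange factor), EPB41L5, LYST (a regulator of lysosome traffic) and PIK3IP1 (an inhibitor of PI3 kinase) completed the group with RGS1 and VDR, at log2 differences from 0.91 to 1.01. LYST, for example, was at 7.23 to 10.0 CPM in set 1 and 13.7 to 16.6 CPM in set 2. JUN, MYH15 and ARHGEF3 were not called without BR SI-2 2, although their log2 differences were then 1.81, 1.02 and 1.

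By the same rule, the 12 genes lowest in set 2 were headed by LGR6, a receptor for R-spondins, at 4.49, 8.80, 7.34 and 4.41 CPM in set 1 and 1.92, 1.96, 1.37 and 1.30 CPM in set 2 (log2 difference -1.67, SE 0.29). HRK, a BH3-only protein that promotes apoptosis, was at 16.6, 32.4, 28.2 and 21.2 CPM in set 1 and at 11.6, 7.16, 8.72 and 7.85 CPM in set 2 (log2 difference -1.29, SE 0.22). DDIT4, an inhibitor of mTORC1 signalling, was at 466.9, 829.6, 711.1 and 460.1 CPM in set 1 and at 264.2, 231.7, 321.2 and 212.5 CPM in set 2 (log2 difference -1.10, SE 0.24). For each of these 3, WT vehicle 2 and WT SI-2 2 were the highest libraries. EIF4EBP1, a repressor of cap-dependent translation, was more even, at 247.9, 258.8, 260.5 and 277.6 CPM in set 1 and 142.2, 104.4, 152.6 and 99.8 CPM in set 2 (log2 difference -1.04, SE 0.16). PSMB6, a catalytic subunit of the proteasome, differed by -0.98 (SE 0.18), and CDC6, which licenses replication origins, by -0.98 (SE 0.18). FUT1 (a fucosyltransferase), RAB31, NXPH4, GPAT3 (an acyltransferase of glycerolipid synthesis), CHPF2 (chondroitin synthesis) and STOX2 ranged from -1.29 to -1.03. CHPF2 had the smallest error of the group, with 72.7 to 86.8 CPM in set 1 and 34.3 to 42.8 CPM in set 2 (SE 0.11). LGR6, HRK, RAB31, NXPH4, DDIT4, STOX2 and CDC6 were not called without BR SI-2 2, although their log2 differences were then -1.62, -1.27, -1.22, -1.11, -1.05, -0.995 and -0.92.

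The 2 conditions that the split parts share no library, and their internal differences were compared gene by gene. The difference of WT SI-2 1 minus WT SI-2 2 and that of BR vehicle 2 minus BR vehicle 1 had a Pearson r of 0.121 and a Spearman rho of 0.182 across the 13896 genes, and 57.9% of genes had the same sign. Among the 11279 genes with a mean count of at least 50, r was 0.24. These are correlations across genes, which are not independent replicates, and both pairs took part in choosing the split. All 500 genes called had the same sign in both pairs as in the fit, which the fit itself favours. Without both WT SI-2 libraries, or without both BR vehicle libraries, 0 genes were called. With both differences taken as library 2 minus library 1, the r of 0.121 becomes -0.121. For the other pairs of conditions, r of the differences in that order was 0.103 to 0.436 across the same genes.

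**Figure D3:**
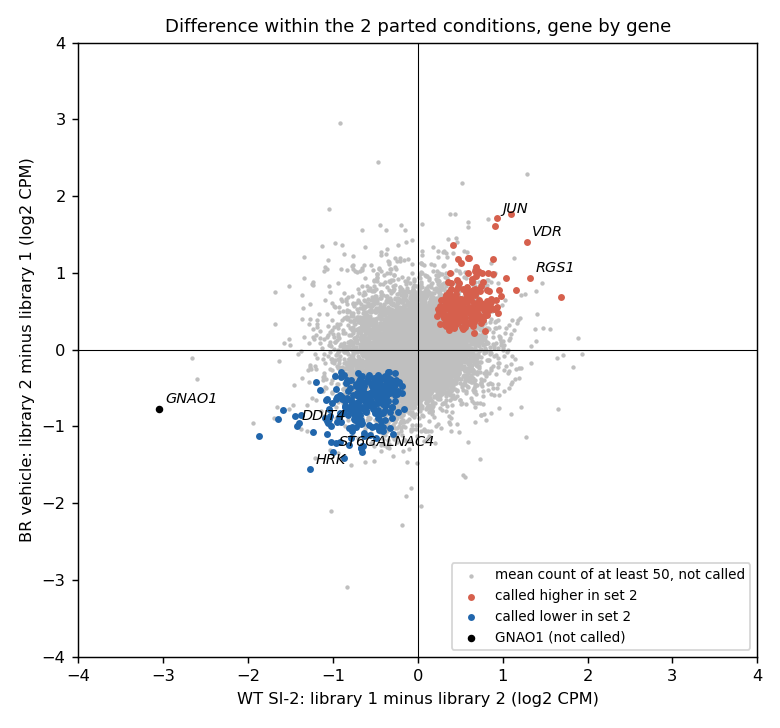
Each point is a gene with a mean count of at least 50, placed by its log2 CPM difference between the 2 WT SI-2 libraries (x axis) and between the 2 BR vehicle libraries (y axis), each as the library of set 2 minus that of set 1. Of the 11279 genes, 2 lie outside the axes. The called genes (red higher, blue lower in set 2) lie in the upper right and lower left, within a cloud whose r is 0.24, and GNAO1 lies at -3.04 and -0.77.

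Genes of the amino acid response held the most calls of any list that was examined. Of 38 tested, 11 were called lower in set 2 and none higher, against 1.9% of all genes called lower, and the median log2 difference of the list was -0.50 where that of all genes was -4e-04. In 36 of the 38 the difference was below 0, and 21 lay wholly below in set 2 against 8.77% of all genes. ATF4 itself was at 1124, 1345, 1299 and 1132 CPM in set 1 and at 751.3, 658.6, 757.0 and 617.7 CPM in set 2 (log2 difference -0.74, SE 0.10). The lowest library of set 1 was far above the highest of set 2. SHMT2, which makes glycine from serine in mitochondria, was at 1096, 1200, 1156 and 1144 CPM in set 1 and at 660.6, 484.6, 707.3 and 460.5 CPM in set 2 (log2 difference -0.93, SE 0.15). In set 2 the lowest libraries were BR vehicle 2 and BR SI-2 2.

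The amino acid transporters SLC7A5, SLC1A4, SLC6A9 and SLC7A1 were called lower, at log2 differences of -0.83, -0.74, -0.96 and -0.46. PSPH, the last enzyme of serine synthesis (-0.81), PCK2, the mitochondrial PEP carboxykinase (-0.67), and CBS, which condenses homocysteine with serine (-0.94), were called as well, and so was INHBE, an activin subunit, at -0.76 with overlapping sets. CBS and the almost identical CBSL divide their reads, and CBSL was not called (-0.52), so the value of either is uncertain. DDIT3 and PPP1R15A, which act downstream of ATF4 in stress, were the 2 members above 0, at 0.19 and 0.34, and neither was called. The summed level of the list was 11360, 14680, 13960 and 11600 CPM in set 1 and 8947, 7014, 8937 and 6634 CPM in set 2. Without BR SI-2 2, 5 of the 38 were called lower and the median was -0.46. Of 260 tested genes with a solute carrier (SLC) symbol, those 4 transporters included, 11 were called lower, against 1.9% of all genes, and 0 higher, a count made after the values had been seen.

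The promoters of the list were searched for an ATF4-type element, TGATGNAA, on both strands of the 250 bases before the transcription start (RefSeq, GRCh38.p14). It was found in 4 of the 32 members with a promoter sequence (12.5%), in 1.55% of the 11196 tested genes with one, and in 3.14% of all 35116 promoters. None of the 8 called members with a sequence had it in this window. The 4 matches are shown because they are the members that carry the letters, with the match in capitals, read 5' to 3' on the strand of the gene.
ASNS, chr7:97872460-97872485, minus strand: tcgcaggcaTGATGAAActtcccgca
ATF3, chr1:212565207-212565232, plus strand: aggtcaggaTGATGGAAggctgtcat
CHAC1, chr15:40953253-40953278, plus strand: cccctgccgTTGCATCActcctgcca
FGF21, chr19:48755461-48755486, plus strand: acaccaggaTTGCATCAgggaggagg
The matches begin 68, 191, 209 and 54 bases before the start, and those of CHAC1 and FGF21 are in reverse orientation. ASNS, asparagine synthetase, was at 788.3 to 950.8 CPM in set 1 and 335.7 to 625.2 CPM in set 2 (log2 difference -0.67, SE 0.18), and CHAC1, which degrades glutathione, at 35.3 to 52.4 and 18.1 to 29.3 CPM (-0.88, SE 0.21). Both left the sets apart, but neither was called. ATF3 was at 65.0 CPM in WT vehicle 2 and 52.3 CPM in WT SI-2 2 and at 9.78 to 25.7 CPM elsewhere, and FGF21 did not exceed 1.06 CPM. The E-box CACGTG, which shares no full match with that element, was found in the same window in 8.8% of tested genes, 14.6% of the 219 genes called lower and 12.5% of the 192 called higher that had a sequence. A match of letters is not a binding site.

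Enzymes that charge tRNAs held 3 calls, all lower in set 2. Of 20 cytosolic aminoacyl-tRNA synthetases, GARS, FARSA and VARS were called lower (log2 differences -0.67, -0.64 and -0.38), against 1.9% of all genes. Of the 20, 18 were below 0 and 12 lay wholly below, against 8.77% of all genes, with a median of -0.28. That median ran from -0.43 to -0.15 over the alternative settings. It was -0.13 between the 2 WT SI-2 libraries and -0.48 between the 2 BR vehicle libraries. GARS, the glycyl-tRNA synthetase, was at 970.2, 1147, 1065 and 1107 CPM in set 1 and at 755.4, 555.4, 770.9 and 522.7 CPM in set 2. Again the sets did not overlap and BR vehicle 2 and BR SI-2 2 were lowest. Without BR SI-2 2 none of the 20 was called and the median was -0.23.

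ER chaperone and unfolded protein response genes had the lowest median of the lists described here, at -0.56. All 24 were below 0, and 12 lay wholly below in set 2 against 8.77% of all genes. Only 3 were called, against 1.9% of all genes, SEL1L and SEC61B, which act in ER-associated degradation and in protein import, and CRELD2, a chaperone. SEL1L was at 581.9, 518.4, 460.8 and 542.9 CPM in set 1 and at 375.8, 254.1, 348.4 and 234.7 CPM in set 2 (log2 difference -0.71, SE 0.16). HSPA5, the main chaperone of the ER lumen, was at 891.2, 894.6, 837.3 and 666.3 CPM in set 1 and at 628.1, 296.5, 650.6 and 276.8 CPM in set 2, and was not called (-0.59, SE 0.27). Its values in set 2 fell into a high and a low pair, and the 2 low libraries were BR vehicle 2 and BR SI-2 2. The mean level of the list, centred over the 8 libraries on the log2 scale, was 0.26 to 0.53 in set 1, close to 0 in WT SI-2 1 and BR SI-2 1 (-0.01 and 0.01), and -0.62 and -0.73 in BR vehicle 2 and BR SI-2 2. Set 2 was thus not uniform for this function. Without BR SI-2 2 none of the 24 was called and the median was -0.50.

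Of 14 secretion genes of plasma cells, 1 was called lower, against 1.9% of all genes. This gene, DERL3, an ER degradation factor made in plasma cells, differed by -0.98 (SE 0.19). It was at 310.0, 191.1, 184.3 and 222.7 CPM in set 1 and at 130.7, 100.2, 112.2 and 89.6 CPM in set 2. None of 14 plasma cell genes was called, with a median of -0.17, and IRF4 differed by -0.45 (SE 0.17) with overlapping sets. In the Golgi, MGAT1 and MGAT2, which build the branches of N-glycans, and GALNT2, which starts O-glycans, were called lower among 29 glycosyltransferases, against 1.9% of all genes (log2 differences -0.61, -0.57 and -0.44), and without BR SI-2 2 only MGAT2 was. ST8SIA4, a polysialyltransferase, was called in the other direction (0.66, SE 0.09).

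Of 23 genes of cell growth and nucleolar ribosome assembly, 8 were called lower in set 2, against 1.9% of all genes. In the list, 16 were below 0 and 7 lay wholly below, against 8.77%, with a median of -0.355. NCL, nucleolin, was at 1052, 1123, 1032 and 1252 CPM in set 1 and at 765.6, 816.7, 968.5 and 841.9 CPM in set 2 (log2 difference -0.50, SE 0.08). SRM, which makes spermidine and is not a nucleolar protein, differed most, at -0.89 (SE 0.10), and NOP16, RRP9, NOP58 and DKC1 at -0.85, -0.61, -0.39 and -0.35. The mean level of the list did not leave the sets apart, since BR vehicle 2 (-0.01) and BR SI-2 2 (0.02) were level with WT vehicle 1 (-0.004) and WT SI-2 2 (0.015), while WT SI-2 1 was at -0.28 and BR vehicle 1 at 0.25. Without BR SI-2 2, 4 of the 23 were called and the median was -0.358. Of 70 cytosolic ribosomal protein genes none was called, although 67 were below 0 with a median of -0.10. Among 34 proteasome subunits, PSMB6 and PSMD8 were called lower, and the median was -0.08.

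NF-kB target genes were the clearest group on the other side. All 18 tested were above 0 with a median of 0.31, 5 were called higher against 1.7% of all genes, and 9 lay wholly above in set 2 against 9.2%. The 5 were NFKBIA, NFKBIE and TNFAIP3, inhibitors of the pathway, RELB, a subunit, and BIRC3, a ubiquitin ligase and survival factor. TNFAIP3 was at 312.4, 305.1, 351.5 and 288.4 CPM in set 1 and at 475.1, 431.1, 475.4 and 441.1 CPM in set 2 (log2 difference 0.60, SE 0.09). BIRC3 was at 216.5, 189.8, 209.8 and 204.2 CPM in set 1 and at 319.6, 297.0, 272.2 and 299.9 CPM in set 2 (0.57, SE 0.09). Both were even within each set. The list's centred mean level, however, was 0.04 in WT SI-2 2 and 0.01 in BR SI-2 1, so the list as a whole did not leave the sets apart. Without BR SI-2 2, 2 of the 18 were called and the median was 0.32.

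MCL1, an anti-apoptotic BCL2 family protein on which myeloma cells depend, was at 1375, 1147, 1272 and 1304 CPM in set 1 and at 2201, 1854, 2119 and 1854 CPM in set 2 (log2 difference 0.69, SE 0.10). It was thus higher in set 2 while HRK, a BH3-only member of the family, was lower, and none of the other 12 tested members was called. NR2F2, an orphan nuclear receptor, was called higher beside VDR among 24 nuclear receptor genes (0.96, SE 0.22), with overlapping sets. Of 6 tested vitamin D receptor target genes none was called, and their median was -0.16. RGS2 was called with RGS1 among 27 genes of RGS proteins and G protein subunits (0.56, SE 0.10). Of all genes, 1.7% were called higher. JUN was the only call among 18 immediate early genes, whose median was 0.24.

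**Figure D4:**
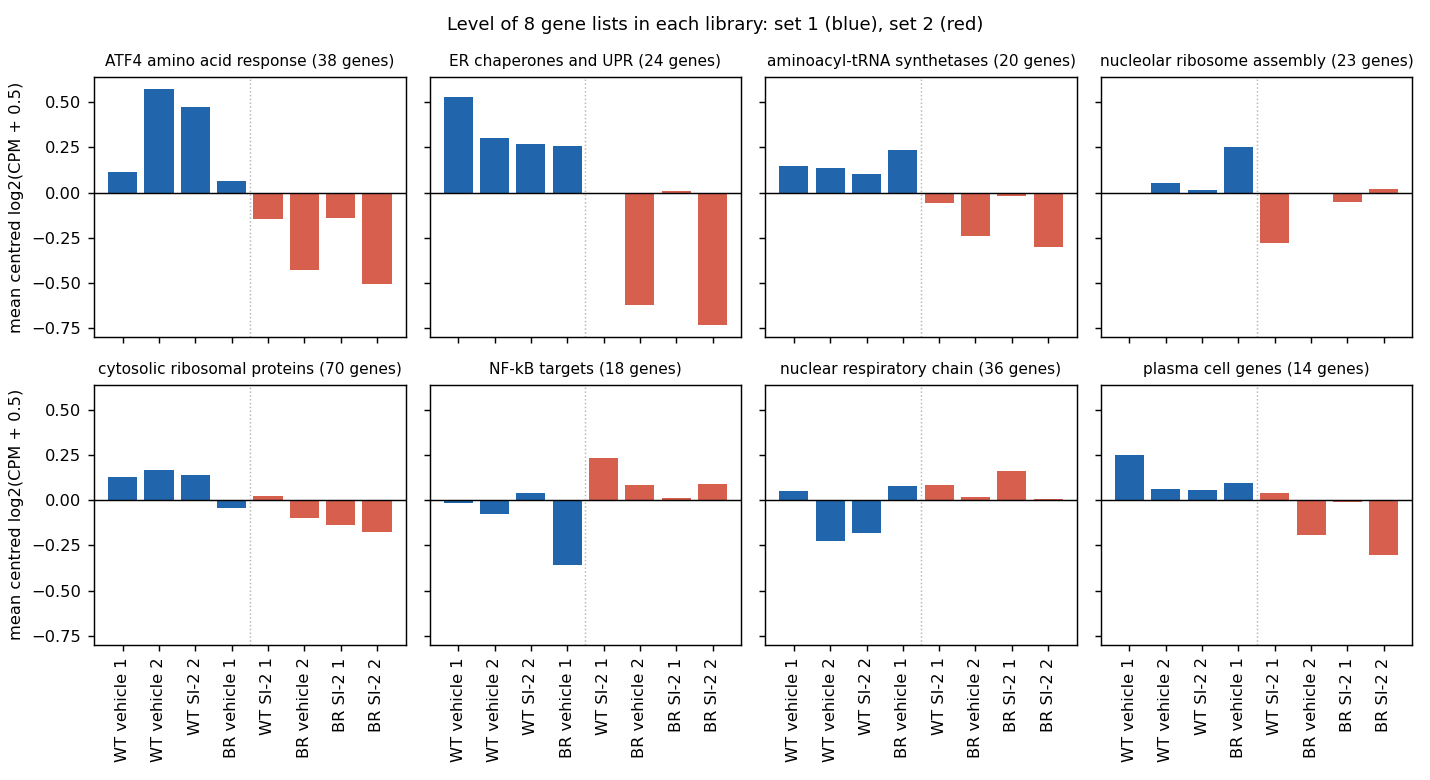
Mean level of 8 gene lists in each library (y axis, log2(CPM + 0.5) centred per gene over the 8 libraries and averaged over the tested members), with set 1 in blue and set 2 in red. The amino acid response, ER chaperone and aminoacyl-tRNA synthetase lists leave the sets apart, and the lowest ER chaperone levels are -0.62 in BR vehicle 2 and -0.73 in BR SI-2 2.

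Of the 46 lists with a tested member, the mean level left the sets apart in 7, namely the amino acid response, aminoacyl-tRNA synthetase, ER chaperone, NRF2 antioxidant, hypoxia response, Golgi glycosyltransferase and plasma cell lists, all lower in set 2. The gap was narrowest in the NRF2 list (0.051 in WT vehicle 1, 0.042 in BR SI-2 1). It was also narrow in the plasma cell list (0.056 in WT SI-2 2, 0.041 in WT SI-2 1) and the hypoxia list (0.039 in WT SI-2 2, -0.003 in BR SI-2 1). Of single genes, 9.2% lay wholly above and 8.77% wholly below. Whether the share of lists differed from these shares was not tested. In the NRF2 list KEAP1 and SRXN1 were called lower of 20 (median -0.34), and 16 were below 0. Of all genes, 1.9% were called lower. None of 14 ERK pathway output genes was called, although their median was 0.30. HK2, hexokinase 2, was called lower (-0.82, SE 0.10), the only one of 18 glycolysis genes, whose median was -0.04. CDC6 and CDT1, both origin licensing factors, were called lower among 27 replication genes (against 1.9% of all genes), whose median was 0.015. None of 27 mitosis genes was called, and MKI67 was at 395.7 and 399.9 CPM in WT vehicle 2 and WT SI-2 2 and at 540.4 to 681 CPM in the other 6 libraries. None of 36 respiratory chain genes was called, but 10 lay wholly above in set 2, against 9.2% of all genes, with a median of 0.08. The median of these 36 was 0.28 between the 2 WT SI-2 libraries and -0.05 between the 2 BR vehicle libraries. None of 24 cholesterol synthesis, 15 histone, 17 MHC or 9 steroid coactivator genes was called. Called higher were 1 of 18 interferon genes (IFIH1) and 1 of 20 p53 target genes (RRM2B), against 1.7% of all genes. Called lower were 1 of 15 heat shock genes (HSPA1A) and 1 of 26 splicing factor genes (HNRNPM), against 1.9% of all genes. HSPA1A shares reads with a near-identical copy, so its value is uncertain. Leaving out BR SI-2 2 kept the calls of MCL1, HK2, RRM2B, ST8SIA4 and PSMB6. It ended those of DERL3, NR2F2, RGS2, PSMD8, KEAP1, SRXN1, CDT1, IFIH1, HSPA1A and HNRNPM. The log2 differences of these 10 were then -0.93, 0.87, 0.59, -0.55, -0.56, -0.78, -0.61, 0.51, -0.87 and -0.37.

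Among the genes whose profile was most like that of VDR, by Pearson r of log2 CPM over the 8 libraries, were AMD1 (0.99), EID2 and ADO (0.987) and LUZP1 (0.986). These r values have no p, because the libraries share the split. AMD1, which commits S-adenosylmethionine to polyamine synthesis, was at 96.1, 94.4, 102.3 and 116.2 CPM in set 1 and at 162.5, 176.8, 150.5 and 178.8 CPM in set 2 (log2 difference 0.64, SE 0.10). AMD1 and EID2 were called (EID2 not without BR SI-2 2) and ADO and LUZP1 were not, although all 4 left the sets apart. AMD1 and SRM act in the same polyamine pathway and differed in opposite directions.

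Base composition differed between the genes called in each direction. The median GC content of annotated transcripts was 43.9% for genes called higher, 56.5% for genes called lower and 49.8% for all genes tested. Over all genes with a GC value (13572), Spearman's rho between GC content and the log2 difference was -0.234. In the bin of lowest GC (median 38.5%) 53 genes were called higher and 5 lower, and in the bin of highest GC (median 64.3%) 10 and 50. Per library, rho between GC content and the deviation from the mean of the 8 was -0.333 in WT SI-2 1 and 0.276 in WT SI-2 2. It was 0.001, 0.115 and 0.064 in the other libraries of set 1, and -0.065, -0.123 and 0.024 in those of set 2. These values did not leave the sets apart, since BR SI-2 2 lay above WT vehicle 1. With the GC trend of each library removed, 359 genes were called, of which 304 were among the 500. The list medians were then -0.48 for the amino acid response, -0.56 for ER chaperones, -0.32 for nucleolar genes and 0.38 for NF-kB targets, so they kept their direction.

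**Figure D5:**
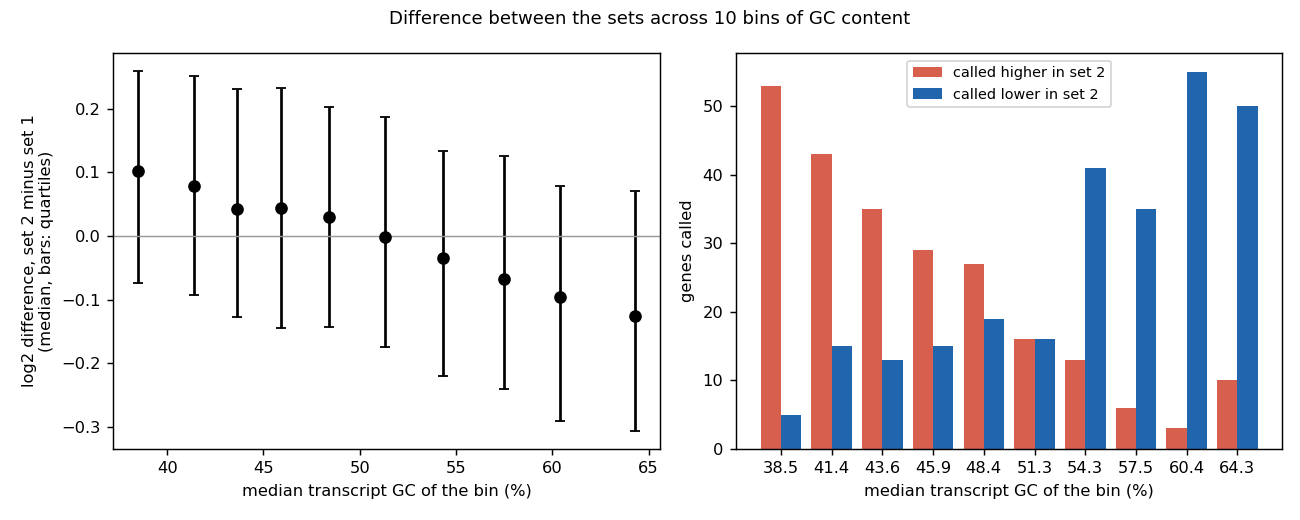
Left, median log2 difference between the sets (y axis, set 2 minus set 1, bars at the quartiles) in 10 bins of transcript GC content (x axis, %). Right, number of genes called higher (red) and lower (blue) in the same bins, which goes from 53 and 5 in the lowest bin to 10 and 50 in the highest.

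The labelled comparisons were run on the same libraries with line and treatment as terms. BR against WT called 45 genes (0.324%) at an adjusted p under 0.05 (edgeR), of which 14 were higher in BR cells and 31 were lower. The split shared 2 of its 500 genes with them, INHBE and RASA3, a GTPase-activating protein of the Ras family, both lower in BR cells and in set 2. An unadjusted p under 0.05 for SI-2 was found in 63 of the 500, against 2.99% of all genes. The comparisons use the same libraries, and each set shares 3 of 4 with a line and with a treatment. With the set as a further term 5 genes were called for the line. In the fit with line and treatment alone, the 45 genes fell to 16 and 10 without WT vehicle 1 or 2. The number was 10 without WT SI-2 2, 11 and 6 without BR vehicle 1 or 2, and 12 without BR SI-2 2. It was 36 without WT SI-2 1. Without BR SI-2 1 it was 65, and the balance turned to 39 higher and 26 lower. The median log2 difference of BR minus WT was -0.51 for the amino acid response list and -0.49 for ER chaperones, beside -0.50 and -0.56 for the sets. VDR was 0.97 higher on the log2 scale in BR cells (SE 0.34, adjusted p = 0.283), and ST6GALNAC4 differed by -1.70 (adjusted p = 0.0629, edgeR). SI-2 against vehicle called 0 genes (0%) by edgeR, with 416 at an unadjusted p under 0.05, and 1 gene by DESeq2. Without BR SI-2 1, edgeR called 5 genes.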

How the data were processed

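RNA was sequenced on the BGISEQ-500 platform. The submitters' processing notes name BWA, Bowtie2, RSEM and hg19, with no versions or roles. The authors deposited an estimated count for each gene (an expected count, with shared reads divided among genes) and its FPKM, scaled by gene length and library size. In the table, 25 of 18564 symbols had turned into dates. The 8 columns of condition averages, the tables per transcript and the authors' own comparisons (fold changes and p-values) were not used here.

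Counts were rounded, filtered with filterByExpr by condition (13896 genes) and TMM-scaled (factors 0.971 to 1.058), and fitted with edgeR 4.0.16 quasi-likelihood (line and set, or line and treatment; Benjamini-Hochberg over all genes; standard errors from the F statistic) in R 4.3.3. The fit of line and set was tested on simulated counts with edgeR, DESeq2 and limma, and limma took those counts in place of FPKM. The other steps were not tested on simulated data. DESeq2 1.42.0 and limma 3.58.1 on log2(FPKM + 1) and log2(FPKM + 0.1) were alternatives. GC content and length came from GENCODE transcripts of GRCh38, and promoters from RefSeq. Python 3.11.15 drew the plots. The total of 17997771 to 18570027 counts per library limits precision by counting error only for low genes.

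The members, the 47 gene lists and the named genes were chosen with earlier results of these data known. Named were the 4 markers, the 12 highest and 12 lowest called genes (mean count at least 50, no overlap of the sets), up to 4 called members of each list with the highest CPM (otherwise the top 2), and the 5 genes most like VDR; other genes were named after their values were seen. The list of abundant non-coding and mitochondrial transcripts was not analysed here. Some genes that this rule names are not reported here.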

Additional observations from a re-analysis of the deposited data

Results flagged for a closer look

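In 34 groups of 4 libraries examined (the markers and the main lists within each set), 2 had a library whose gap to its nearest neighbour exceeded Dixon's 95% critical value. Chance gives about 1 in 20 for independent groups of like libraries. The sets were chosen from measured expression and the groups share libraries, so that rate need not hold here. ST6GALNAC4 in BR vehicle 1 was low within set 1, with a gap of 0.833 of the range. Dixon's value takes the 4 libraries as alike, but BR vehicle 1 is the only BR library of set 1. This gene differed by -1.70 on the log2 scale between BR and WT cells. The ER chaperone level of WT vehicle 1 was high within set 1, with a gap of 0.838 of the range. Among genes too low to be tested, 51 had a count of at least 50 in BR SI-2 2 and at most 5 in every other library, and 0 genes did so in any other library. COL3A1 was one of these genes, with 998 counts there. Their part in the difference between the sets was not tested beyond leaving that library out.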

How the results depend on the processing

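Between the sets, 500 genes were called. The number was 764 with library size only (64.8% of them higher, against 47.2% in the reported fit), 1462 with DESeq2, 1220 with set as the only term and 24 with a 2-fold threshold. It was 0 with line, SI-2 and set as terms. The set was also fitted within each line, in 1 model of all 8 libraries. There it sets a single library against the others of its line, so no count is given. Limma on log2(FPKM + 1) and log2(FPKM + 0.1) called 559 and 622 genes, with 60.6% and 61.1% higher. Leaving out 1 library gave 0 to 1184 genes. Without both WT SI-2 or both BR vehicle libraries, which was chosen after seeing the data as were the GC and length corrections and the list counts without BR SI-2 2, 0 genes were called. BR against WT (45 genes) gave 337 with DESeq2, 5 with set as a further term and 6 to 65 with 1 library left out. SI-2 against vehicle (0) gave 1 with DESeq2 and 0 to 5 with 1 library left out. The correlation of the within-condition differences was 0.24 at a mean count of at least 50. The median of nuclear receptor genes was -0.10 with line, SI-2 and set as terms, against 0.12 (0.125) as reported. Of the other values of named genes and lists under an alternative, 3015 moved by less than 1 SD between libraries and 134 by more, and no called gene changed sign. The causes were not tested. With the replicate number as a block, 2251 genes were called between the sets and 121 for BR against WT. Between conditions, r of the differences of library 2 minus library 1 was 0.103 to 0.436 except between WT SI-2 and BR vehicle, the conditions that the split parts, where it was -0.121. This is the r of 0.121 from the gene-by-gene comparison with its sign turned, because that comparison reversed the WT SI-2 difference. The labels do not say that the numbers pair the samples, and the block was therefore not part of the reported fits. Depth was even and limits only genes with few counts.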
